A study of Mus musculus with 8 samples.

Results

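Neuropeptide genes and the genes of the granins and peptide-processing proteins were followed in RNA bound to tagged ribosomes of the mouse hippocampus. The members were the 32 named genes of these kinds that the array files list under those symbols, 22 neuropeptide genes (with Crhbp, a binding protein, counted among them) and 10 granin and processing genes, on 36 probes. Of these, 27 were bright enough to be tested, 17 neuropeptide genes and all 10 granin and processing genes, among 29529 genes tested on the arrays.

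Neurons make a neuropeptide as a longer precursor that enters the secretory pathway. Granins, acidic proteins of the regulated secretory pathway, aggregate with the precursor and help to form dense-core vesicles. Within these vesicles prohormone convertases cut the precursor after pairs of basic residues, carboxypeptidase E trims those residues, and an amidating enzyme finishes many peptides. In the hippocampus somatostatin, neuropeptide Y and cholecystokinin are best known from inhibitory interneurons, while dynorphin is known from dentate granule cells and cholecystokinin RNA is found in pyramidal cells too.

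The study compared 4 WT mice with 4 conditional knockout (CKO) mice, 1 array per mouse. WT mice were labelled Ctcf wild type and CKO mice Ctcf loxP/loxP, and both groups carried Camk2a-Cre and the RiboTag allele Rpl22-tsam1.1Psam/J on a C57BL/6 background. All were naive, untreated adults at least 3 months old, with 3 males and 1 female per group. The series' design text gives the controls another genotype, Ctcf loxP/loxP, and here the labels of the samples were used. RiboTag is an allele of the ribosomal protein gene Rpl22 that carries a haemagglutinin tag after Cre has acted, and an antibody to the tag pulls down ribosomes with the RNA they carry. Camk2a drives this Cre mainly in forebrain excitatory neurons, whereas several of the peptides are made chiefly by interneurons. Which cells supplied a given transcript was not tested.

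Of all probes, 72.2% (CKO 3) to 81.5% (WT 1) were well above background. The arrays lay on 3 slides, with WT 1 alone on slide 1. Slide 2 held 2 mice of each group (WT 2, WT 3, CKO 1, CKO 2), and slide 3 held WT 4 with both CKO 3 and CKO 4. The signal of Ctcf was lower in every CKO mouse than in any WT mouse, with a log2 difference of -0.87 (SE 0.22), an exact permutation p of 0.0286 and a limma adjusted p of 0.724. The excitatory markers Camk2a and Slc17a7 were well above background in all 8 mice, and so were the interneuron markers Gad1, Gad2 and Slc32a1. Values below are log2 signals relative to each array's 75th percentile, so a difference of 1 is a 2-fold change, and differences are CKO minus WT. In an RNA pool of this kind fewer cells of a type and less RNA per cell cannot be told apart.

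Probes for 4 of the peptide genes contain the codons of a site where the convertases cut, and they are shown for the place of that site. A probe reads the amount of labelled message, so its signal reports neither on cutting nor on a peptide. Each is printed in the sense of the message, with the codons for a lysine and arginine pair in capitals. The Npy probe runs up to the pair that follows neuropeptide Y, and the Nts probe holds the pair that follows neurotensin. In the Pdyn probe the pair stands just before alpha-neoendorphin, an opioid peptide cut from the same precursor as the dynorphins. The Pdyn pair begins at base 34 of 60, so most of that probe precedes alpha-neoendorphin. In the Cartpt probe the pair opens the printed stretch.
Npy: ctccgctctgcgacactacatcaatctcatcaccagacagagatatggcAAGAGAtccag
Nts: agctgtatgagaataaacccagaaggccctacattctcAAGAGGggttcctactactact
Pdyn: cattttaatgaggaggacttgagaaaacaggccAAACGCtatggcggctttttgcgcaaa
Cartpt: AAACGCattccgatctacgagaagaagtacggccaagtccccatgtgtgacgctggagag
The Nts probe lies at chr10:101944967-101945026 and the Pdyn probe at chr2:129513968-129514027, both on the minus strand of mm9.

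The promoters of 5 members share a palindromic 8-base element, TGACGTCA, known as the cyclic AMP response element (CRE), first described in the somatostatin promoter. It is bound by CREB, a transcription factor that neuronal activity switches on. In RefSeq promoter windows of 300 bases (GRCm38.p6, 250 before the gene start and 50 after it) the element occurred in 588 of 32851 windows, 1.79%. Windows were found for 28 of the 32 members, 31 windows in all, of which 16.1% held it. The 5 members were Sst, Cartpt, Scg2, Chgb and Pcsk1, so that both peptide precursors and their granins and convertase are among them. The 120 bases before each start are shown 5′ to 3′ in the sense of the gene, with the element in capitals. A match describes these letters and not a bound site, and the palindrome reads the same on both strands.
Sst: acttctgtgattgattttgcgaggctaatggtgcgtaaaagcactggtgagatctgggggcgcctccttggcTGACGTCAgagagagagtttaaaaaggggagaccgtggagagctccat
Cartpt: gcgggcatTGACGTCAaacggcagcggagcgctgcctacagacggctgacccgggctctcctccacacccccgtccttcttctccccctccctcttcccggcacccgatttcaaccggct
Scg2: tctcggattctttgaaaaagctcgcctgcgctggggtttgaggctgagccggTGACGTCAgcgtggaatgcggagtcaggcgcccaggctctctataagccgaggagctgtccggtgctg
Chgb: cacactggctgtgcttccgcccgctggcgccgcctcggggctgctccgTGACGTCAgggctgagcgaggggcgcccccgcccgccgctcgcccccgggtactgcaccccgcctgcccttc
Pcsk1: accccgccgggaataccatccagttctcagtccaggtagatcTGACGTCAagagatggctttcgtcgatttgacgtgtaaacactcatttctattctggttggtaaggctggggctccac
They lie at chr16:23890845-23890964 (minus strand) for Sst, chr13:99900684-99900803 (minus) for Cartpt and chr1:79440027-79440146 (minus) for Scg2. Chgb lies at chr2:132781522-132781641 and Pcsk1 at chr13:75089737-75089856, both on the plus strand. The element begins 48 bases before the start in Sst, 68 in Scg2, 72 in Chgb, 78 in Pcsk1 and 112 in Cartpt. The log2 differences of these 5 genes were 0.37 for Sst, 0.27 for Cartpt, 0.16 for Scg2, 0.33 for Chgb and 0.24 for Pcsk1, and none passed the threshold.

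Among the 17 neuropeptide genes tested, none passed a limma adjusted p of 0.05, a threshold that 0.00339% of all genes (1 gene) passed. At an unadjusted p under 0.05, Tac1 was the single member higher in CKO, against 2.5% of all genes, and 0 members were lower, against 2.8%. In none of the 17 did the groups separate, where 1.96% of all genes had every CKO mouse above every WT mouse and 1.36% had every CKO mouse below. The difference was positive for 12 members and negative for 5 (Pdyn, Cort, Gal, Hcrt and Crhbp). Their median was 0.09, beside -0.078 over all genes tested, of which 41.5% had a positive difference. With median scaling 15 of the 17 were positive, where 57.6% of all genes were. The members' median was then 0.23 and that of all genes 0.065, so this scaling raised every difference by 0.14. With quantile normalization 12 were positive and the median was 0.21, beside -0.0098 over all genes, of which 48.6% were positive.

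The 10 granin and processing genes lay mostly on one side. None passed a limma adjusted p of 0.05, but 3 of 10 (Scg5, Pcsk2 and Pcsk1n) were higher in CKO at an unadjusted p under 0.05, where the background was 2.5%, and 0 were lower. In 2 of them, Pcsk2 and Pcsk1n, every CKO mouse lay above every WT mouse, against 1.96% of all genes, and in 0 every CKO mouse lay below. Pam alone had a negative difference, where 41.5% of all genes had a positive one, and the median of the 10 was 0.32. With quantile normalization 8 were positive with a median of 0.20, and with the authors' deposited values 7 were positive with a median of 0.16. Of all genes 48.6% and 54.2% were positive there. Fitted with slide as a block, the median of these 10 was 0.28. It was also 0.28 within slide 2, and 0.21 within slide 3. The count at an unadjusted p under 0.05 ranged from 0 within either slide to 5 with a random slide block or a trended prior variance, and was 1 without WT 1, WT 2, CKO 1 or CKO 3. The members and lists were chosen with earlier results of these data known, so these counts are descriptions.

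**Figure D1:**
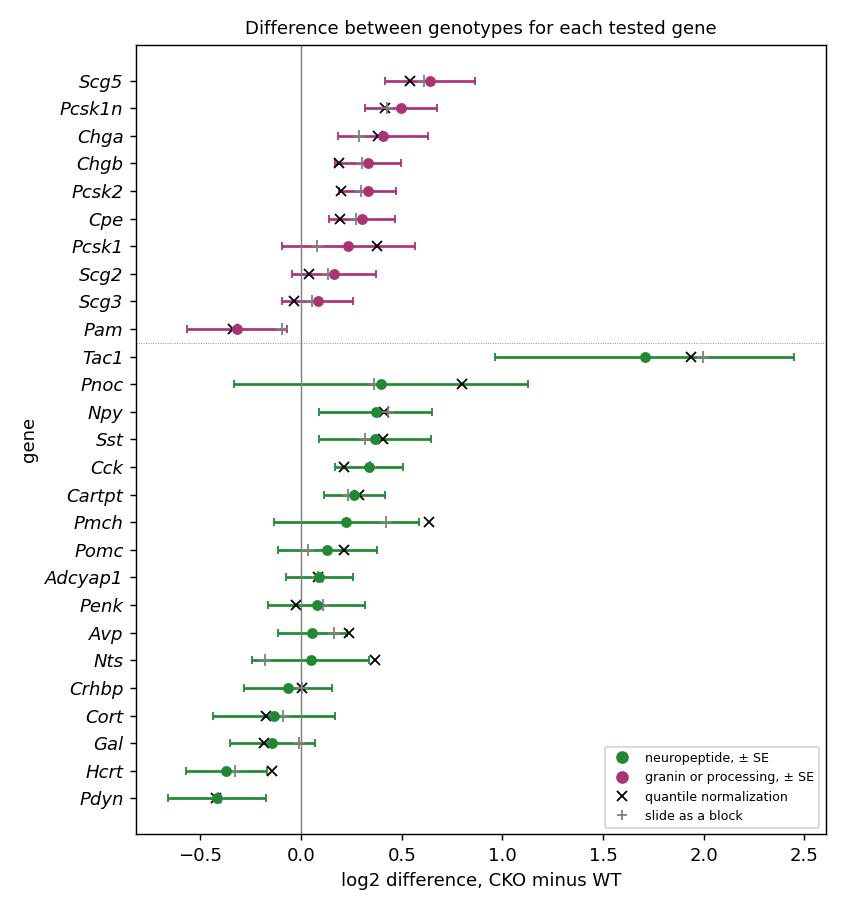
Log2 difference (CKO minus WT, 4 mice each) of every tested member with its standard error, neuropeptide genes in green and granin and processing genes in purple. Crosses give the difference with quantile normalization and plus signs that with the slide as a block. Of the granin and processing genes 9 of 10 points lie right of 0, and Tac1 has the widest error bar, with an SE of 0.74.

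The interneuron peptides are described first. Sst encodes somatostatin, which is released by dendrite-targeting interneurons (probe at 23889776 to 23889835 on chromosome 16, mm9). Its signal was -0.68, -0.99, -0.084 and -0.049 in WT 1 to 4, and 0.31, 0.083, -0.12 and -0.60 in CKO 1 to 4. CKO 1 and CKO 2 lay above every WT mouse, while CKO 3 and CKO 4 lay among them. The difference was 0.37 (SE 0.28, limma p = 0.218, adjusted p = 0.724; exact permutation p = 0.229). It was 0.73 within slide 2 and -0.31 within slide 3, so its sign was not the same on both slides.

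Npy, neuropeptide Y, is often made by the same interneurons and restrains glutamate release. Its signal was -0.35, -0.55, -0.59 and -0.041 in WT 1 to 4, and 0.50, 0.32, -0.12 and -0.74 in CKO 1 to 4. The mice fell in a pattern like that of Sst, with CKO 1 and CKO 2 above all WT mice and CKO 4 below all of them. The difference was 0.37 (SE 0.28, limma p = 0.217, adjusted p = 0.724; exact permutation p = 0.286), 0.98 within slide 2 and -0.39 within slide 3. Both values come from the same arrays, so they are not independent.

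Cck encodes cholecystokinin, a peptide of basket-type interneurons that pyramidal cells also transcribe (probe at 121398943 to 121399002 on chromosome 9, mm9). Its signal was 4.03, 4.28, 3.81 and 4.09 in WT 1 to 4, and 4.45, 4.50, 4.48 and 4.13 in CKO 1 to 4. CKO 1 to 3 lay above every WT mouse, and CKO 4 lay below WT 2, so the groups overlapped by that mouse. The means were 4.05 ± 0.19 (SD, n = 4) in WT and 4.39 ± 0.18 (SD, n = 4) in CKO. The difference was 0.34 (SE 0.17, limma p = 0.0755, adjusted p = 0.724; exact permutation p = 0.0571), and 0.21 with quantile normalization.

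Tac1, the precursor of substance P and neurokinin A, had the one unadjusted p under 0.05 among the peptides (probe at 7512893 to 7512952 on chromosome 6, mm9). Its signal was -3.37, -7.04, -4.20 and -3.98 in WT 1 to 4, and -3.80, -2.36, -2.30 and -3.31 in CKO 1 to 4. CKO 2, CKO 3 and CKO 4 lay above every WT mouse, CKO 1 lay below WT 1, and WT 2 was not well above background. The difference was 1.71 (SE 0.74, limma p = 0.0468, adjusted p = 0.724; exact permutation p = 0.0571). An unadjusted p under 0.05 was kept in 13 of the 24 alternatives that gave a value. It was lost without WT 2, WT 3, CKO 2, CKO 3 or CKO 4, and also with sex as a covariate, in males only, with array weights, with no filter on dim probes, with the replicate block and within slide 3. Without WT 2 the difference was 0.91, and after normexp background correction and quantile normalization 0.69.

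Other interneuron peptides differed by less than their errors. Pnoc, the nociceptin precursor, had a difference of 0.40 (SE 0.73) with values from -4.98 to -2.90 in WT and from -5.33 to -2.05 in CKO, and 1 CKO array was not well above background. Cort, cortistatin, a relative of somatostatin, had -0.13 (SE 0.30). Vip, Tac2 and Crh were not tested. The Vip probe was well above background in 2 WT mice and 1 CKO mouse, that of Tac2 (neurokinin B) in 1 WT mouse and 2 CKO mice, and that of Crh (corticotropin-releasing hormone) in 2 WT mice and 0 CKO mice. Crhbp, which binds and holds back that hormone, had a difference of -0.065 (SE 0.22), turning to 0.079 with median scaling and 0.006 with quantile normalization.

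**Figure D2:**
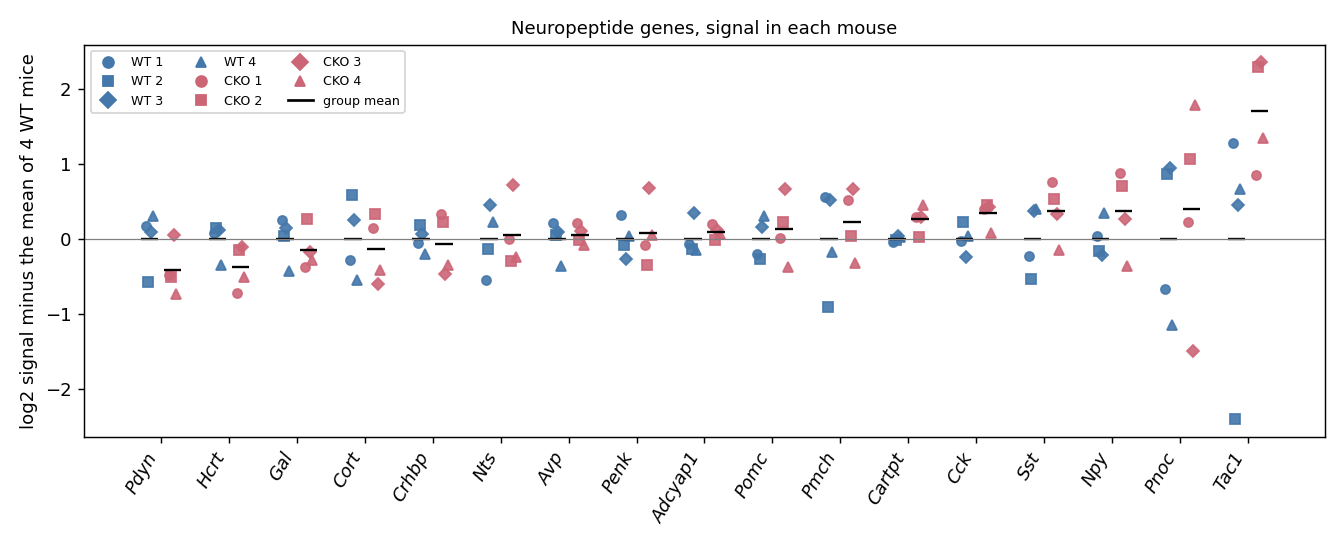
Log2 signal of the 17 tested neuropeptide genes in each mouse, minus that gene's mean over the 4 WT mice, with WT in blue, CKO in red, a shape for each replicate number and black lines at the group means. In each gene the colours overlap. For Tac1 the spread of the WT mice rests on WT 2, at -7.04 before centring.

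The opioid peptides are read by Pdyn, Penk and Pomc. Pdyn encodes prodynorphin, the source of the dynorphins that act on kappa receptors. The probe that represents the gene lies downstream, at 129512323 to 129512382 on chromosome 2 (mm9), and read 0.36, -0.39, 0.27 and 0.48 in WT 1 to 4 and -0.29, -0.32, 0.23 and -0.55 in CKO 1 to 4. WT 2 lay among the CKO mice and CKO 3 among the WT mice, and the difference was -0.42 (SE 0.25, limma p = 0.123, adjusted p = 0.724; exact permutation p = 0.171).

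The other Pdyn probe is the one printed above, which runs past the pair into alpha-neoendorphin. It read -2.04, -2.14, -1.92 and -1.40 in WT 1 to 4 and -2.76, -2.46, -2.64 and -2.61 in CKO 1 to 4. Every CKO mouse lay below every WT mouse, as in 1.36% of all genes tested. The means were -1.87 ± 0.33 (SD, n = 4) in WT and -2.62 ± 0.12 (SD, n = 4) in CKO, a difference of -0.74 (SE 0.19). The limma p was 0.00394. It did not pass after adjustment over all probes (limma adjusted p = 0.738), and the exact permutation p was 0.0286, the smallest that 4 mice against 4 allow. The difference was -0.58 within slide 2 and -1.23 within slide 3, and -0.39 after normexp and quantile normalization. The mean of both probes gave -0.58. This probe was singled out after its values were seen. Whether its difference is particular to this part of the message was not tested.

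**Figure D3:**
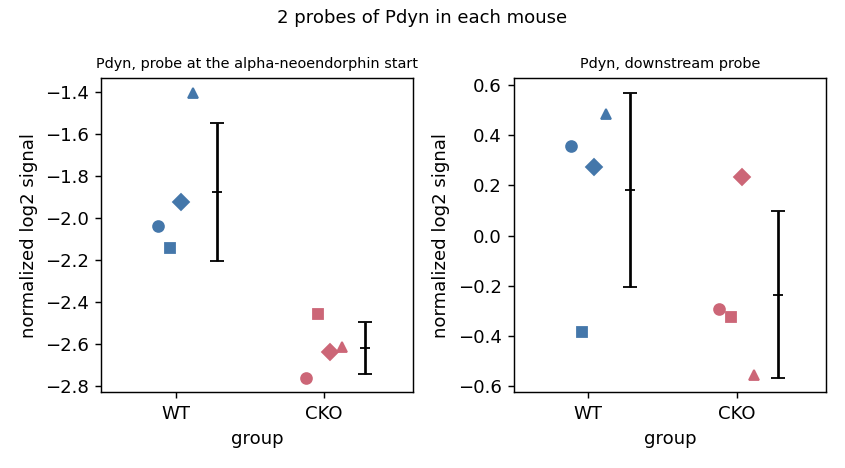
Normalized log2 signal of both Pdyn probes by group, with a shape for each replicate (circle 1, square 2, diamond 3, triangle 4) and bars giving the mean ± SD of 4 mice. At the probe that reaches the alpha-neoendorphin start the CKO mice lie between -2.76 and -2.46, below all WT mice. At the downstream probe the groups overlap, and the 2 vertical axes differ in scale.

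Penk, proenkephalin, had a difference of 0.077 (SE 0.24), and its sign turned to -0.023 with quantile normalization and -0.085 with normexp added. Pomc, the precursor of beta-endorphin and the melanocortins, had 0.13 (SE 0.25). Neither gene separated the genotypes.

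Peptides better known from other brain regions were read as well. Cartpt encodes the CART peptide, which in the hippocampus is known from mossy cells and dentate granule cells. Its signal was -0.59, -0.57, -0.52 and -0.54 in WT 1 to 4, and -0.26, -0.53, -0.27 and -0.10 in CKO 1 to 4. The WT mice lay close together, 3 CKO mice lay above them all and CKO 2 lay among them. The difference was 0.27 (SE 0.15, limma p = 0.110, adjusted p = 0.724; exact permutation p = 0.0571).

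Hcrt, the orexin precursor of the lateral hypothalamus, read -3.07, -2.99, -3.02 and -3.48 in WT 1 to 4 and -3.86, -3.29, -3.25 and -3.65 in CKO 1 to 4 (probe at 100623007 to 100623066 on chromosome 11, mm9). All CKO mice lay below WT 1 to 3, and WT 4 lay among the CKO mice. The difference was -0.37 (SE 0.20, limma p = 0.0968, adjusted p = 0.724; exact permutation p = 0.114). It was -0.15 with quantile normalization and 0.035 within slide 3, where WT 4 is the one WT mouse.

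The rest of this set had small differences beside their errors. Gal, galanin, had -0.14 (SE 0.21), Nts, neurotensin, 0.047 (SE 0.29) and Adcyap1, the precursor of PACAP, 0.090 (SE 0.17). Avp, vasopressin, had 0.055 (SE 0.17) and Pmch, melanin-concentrating hormone, 0.23 (SE 0.36), with 1 WT array of Pmch not well above background. Trh, thyrotropin-releasing hormone, was well above background in 0 of 8 mice, and Oxt, oxytocin, in CKO 2 alone. The genes Pmch and Parpbp overlap, and so do Cck and Gm38661, and Adcyap1 and Gm32465. A probe's name therefore does not settle which of an overlapping pair was read.

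The granins are the cargo proteins of the dense-core vesicle. Chga, chromogranin A, read -0.027, -0.094, 0.25 and 0.48 in WT 1 to 4 and 0.42, 0.39, 1.09 and 0.34 in CKO 1 to 4 (probe at 103803083 to 103803142 on chromosome 12, mm9). CKO 3 stood above all other mice, and the other CKO mice lay between WT 3 and WT 4. The difference was 0.41 (SE 0.22, limma p = 0.0998, adjusted p = 0.724; exact permutation p = 0.143), and 0.23 without CKO 3.

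Chgb, chromogranin B, read 3.24, 3.13, 3.13 and 3.35 in WT 1 to 4 and 3.50, 3.34, 3.85 and 3.49 in CKO 1 to 4 (probe at 132620703 to 132620762 on chromosome 2, mm9). CKO 1, CKO 3 and CKO 4 lay above every WT mouse, and CKO 2 lay just below WT 4. The means were 3.21 ± 0.10 (SD, n = 4) in WT and 3.54 ± 0.22 (SD, n = 4) in CKO. The difference was 0.33 (SE 0.16, limma p = 0.0718, adjusted p = 0.724; exact permutation p = 0.0571), and 0.19 with quantile normalization. Scg2, secretogranin II, the source of secretoneurin, had 0.16 (SE 0.21), and Scg3, secretogranin III, which tethers granins to the vesicle membrane, had 0.082 (SE 0.18), turning to -0.035 with quantile normalization.

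Of the processing genes, the convertase PC2, its helper and a convertase inhibitor were the members with an unadjusted p under 0.05. Pcsk2 encodes PC2 (probe at 143639649 to 143639708 on chromosome 2, mm9) and read 3.64, 3.86, 3.67 and 3.85 in WT 1 to 4 and 4.21, 4.05, 4.07 and 4.01 in CKO 1 to 4. Every CKO mouse lay above every WT mouse. The difference was 0.33 (SE 0.14, limma p = 0.0449, adjusted p = 0.724; exact permutation p = 0.0286), a 1.26-fold difference, and 0.20 with quantile normalization. Its second probe, at 143641856 to 143641915, gave 0.31 (SE 0.21, limma p = 0.165; exact permutation p = 0.171), and there the groups overlapped. An unadjusted p under 0.05 was kept for Pcsk2 in 8 of 25 alternatives and was lost with quantile normalization, with the slide as a fixed block and without each mouse other than WT 4. Pcsk2 overlaps the antisense genes Pcsk2os1 and Pcsk2os2, and also Gm52527.

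Scg5 encodes 7B2, the chaperone that PC2 needs to become active (probe at 113616781 to 113616840 on chromosome 2, mm9). It read 1.51, 1.28, 1.54 and 1.82 in WT 1 to 4 and 2.47, 1.96, 2.55 and 1.74 in CKO 1 to 4. CKO 1 to 3 lay above every WT mouse, and CKO 4 lay below WT 4. The means were 1.54 ± 0.22 (SD, n = 4) in WT and 2.18 ± 0.39 (SD, n = 4) in CKO, a 1.56-fold difference. In log2 it was 0.64 (SE 0.22, limma p = 0.0189, adjusted p = 0.724; exact permutation p = 0.0571), with 0.80 within slide 2 and 0.32 within slide 3. Scg5 kept an unadjusted p under 0.05 in 21 of 25 alternatives, and lost it without WT 2 or CKO 1 and within either slide.

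Pcsk1n encodes proSAAS, a granin-like protein and an inhibitor of the convertase PC1/3 (probe at 7500267 to 7500326 on chromosome X, mm9). It read 4.77, 5.14, 5.20 and 4.97 in WT 1 to 4 and 5.53, 5.53, 5.80 and 5.22 in CKO 1 to 4. Every CKO mouse lay above every WT mouse, CKO 4 by a small margin over WT 3. The means were 5.02 ± 0.19 (SD, n = 4) in WT and 5.52 ± 0.24 (SD, n = 4) in CKO, a 1.41-fold difference. In log2 it was 0.50 (SE 0.18, limma p = 0.0223, adjusted p = 0.724, exact permutation p = 0.0286), with 0.36 within slide 2 and 0.54 within slide 3. Pcsk1n kept an unadjusted p under 0.05 in 21 of 25 alternatives, and lost it without WT 1 or CKO 3 and within either slide. The genes Pcsk1n and Eras overlap. Pcsk1, the convertase PC1/3 itself, had 0.24 (SE 0.33), and -0.11 within slide 3.

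Cpe encodes carboxypeptidase E (probe at 67071349 to 67071408 on chromosome 8, mm9) and read 4.49, 4.40, 4.22 and 4.61 in WT 1 to 4 and 4.56, 4.60, 4.89 and 4.88 in CKO 1 to 4. CKO 3 and CKO 4 lay above every WT mouse, and CKO 1 and CKO 2 lay among them. The difference was 0.30 (SE 0.16, limma p = 0.0959, adjusted p = 0.724; exact permutation p = 0.0857). The other probes did not repeat it, with 0.10 (SE 0.18) at 67071401 to 67071460, a stretch that overlaps the first probe, and -0.18 (SE 0.21) at 67085401 to 67085460. Pam, which amidates the ends of peptides such as neuropeptide Y and cholecystokinin, read 0.90, 0.063, 0.58 and -0.17 in WT 1 to 4 and -0.066, 0.17, -0.20 and 0.20 in CKO 1 to 4. WT 1 and WT 3 lay above every CKO mouse, and the difference was -0.32 (SE 0.25, limma p = 0.233, exact permutation p = 0.314). Pam overlaps the genes Gm31771, Gm3531, B230216N24Rik, Gm24465 and Gm51640.

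**Figure D4:**
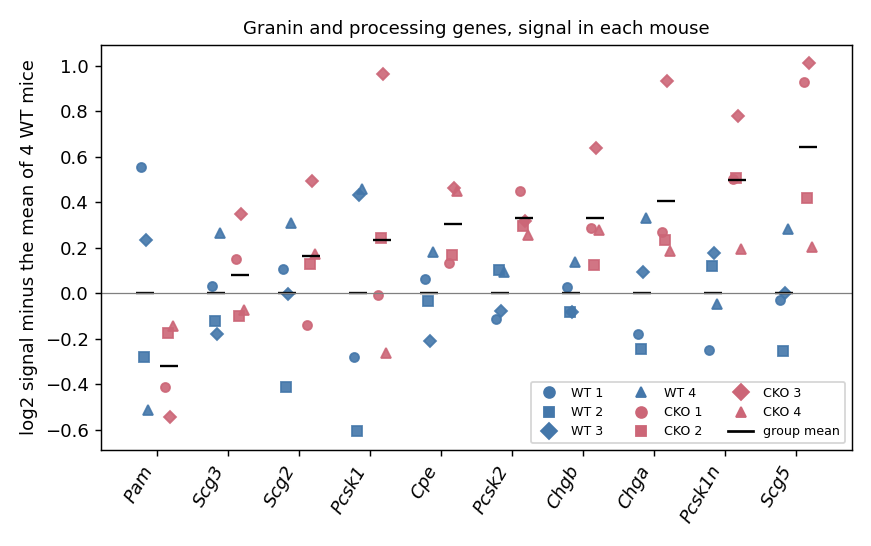
Log2 signal of the 10 granin and processing genes in each mouse, minus that gene's mean over the 4 WT mice, with WT in blue, CKO in red, a shape for each replicate number and black lines at the group means. For Pcsk2 and Pcsk1n the colours do not overlap. CKO 3 is the highest mouse for 8 of the 10 genes.

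Mice were also compared over the peptides and over the granin and processing genes, by the median over members of a gene's distance from its mean in the 8 mice. For granin and processing genes this median was -0.21, -0.22, -0.16 and 6.4e-05 in WT 1 to 4, and 0.089, 0.040, 0.44 and -3.0e-05 in CKO 1 to 4. CKO 3 was far above the others, and CKO 4 lay level with WT 4, so CKO 1 to 3 were above all WT mice. For neuropeptide genes it was -0.11, -0.14, 0.18 and -0.16 in WT 1 to 4, and 0.15, 0.15, 0.15 and -0.26 in CKO 1 to 4. Here WT 3 was the highest and CKO 4 the lowest.

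The size of a difference went with the signal of the probe over all genes. When all genes were split into 10 equal groups (deciles) by mean signal, the median difference ran from -0.52 in the dimmest to 0.16 in the brightest. With quantile normalization these became -0.076 and 0.026. Of the 10 granin and processing genes 7 fell in the 2 brightest deciles, while neuropeptide genes were spread from decile 1 to decile 10. Set against the median of their own decile, 8 of 10 granin and processing genes and 11 of 17 neuropeptide genes were above it. The median distance from it was 0.17 over all 10 and 0.26 over all 17. By construction 50% of all genes lie above. Signal here is a property of a probe and gives no order of abundance between genes.

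**Figure D5:**
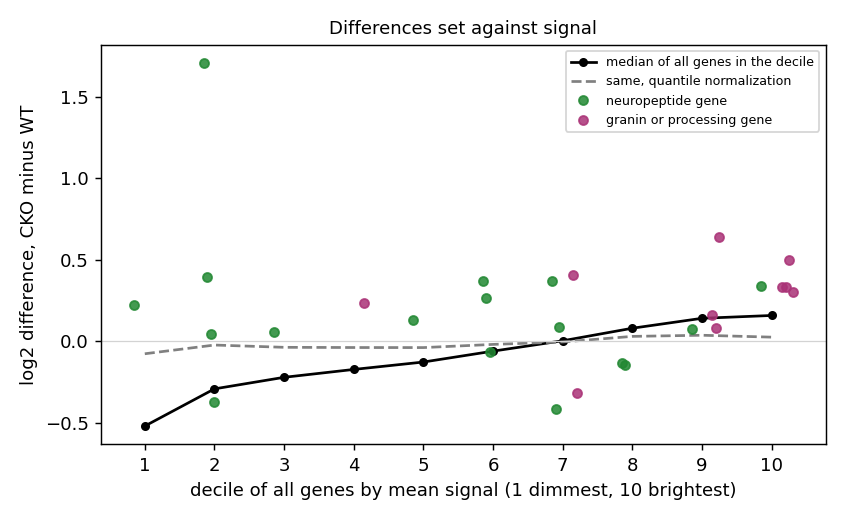
Log2 difference (CKO minus WT) of each tested member against the decile of all genes its mean signal falls in, neuropeptide genes in green and granin and processing genes in purple. The black line joins the median difference of all genes in each decile, from -0.52 to 0.16, and the dashed line gives the same with quantile normalization.

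As scaled here, the receptors of these peptides were split about evenly, where 41.5% of all genes had a positive difference. Of 38 listed receptor genes 30 were tested, 16 had a positive difference and the median was 0.030. With median scaling 20 were positive (median 0.17) and with the authors' deposited values 21 (0.071). Of all genes 57.6% and 54.2% were positive there. The median was 0.052 within slide 2 and 0.016 with quantile normalization. It became -0.0062 after normexp and quantile normalization, -0.070 within slide 3 and -0.0025 with slide as a fixed block. At an unadjusted limma p under 0.05, 0 were higher and 1 was lower, against 2.5% and 2.8% of all genes. With median scaling, quantile normalization, normexp added to it or the authors' deposited values 0 were lower. With slide as a fixed block 2 were lower, and within slide 2 the number was 1. As scaled here and without a block, the 1 lower gene was the melanocortin receptor Mc4r. Its difference was -0.77 (SE 0.32, limma p = 0.0410, adjusted p = 0.724, exact permutation p = 0.0857). It read -2.99, -2.56, -2.27 and -2.17 in WT 1 to 4 and -3.39, -3.21, -4.01 and -2.48 in CKO 1 to 4, and CKO 4 lay among the WT mice.

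Most genes of the dense-core vesicle's sorting and release machinery had a positive difference, where 41.5% of all genes had one. All 20 listed were tested, 16 had a positive difference and the median was 0.16. With median scaling 18 were positive (median 0.30) and with the authors' deposited values 12 (0.049). Of all genes 57.6% and 54.2% were positive there. Within slide 3 the number was 11 (0.023). The median was 0.070 with quantile normalization and 0.075 within slide 2. The median difference of all genes was 0.080 in signal decile 8 and 0.16 in decile 10. This list was not set against its deciles. At an unadjusted limma p under 0.05, 1 was higher and 0 were lower, against 2.5% and 2.8% of all genes. Hid1, which takes part in the making of these vesicles at the Golgi, was the member with an unadjusted p under 0.05, at 0.46 (SE 0.17, limma p = 0.0228, adjusted p = 0.724; exact permutation p = 0.0286). It read 3.21, 3.12, 3.17 and 3.34 in WT 1 to 4 and 3.47, 3.89, 3.86 and 3.45 in CKO 1 to 4, so that every CKO mouse lay above every WT mouse. Of 29 other prohormone and processing genes 22 were tested, and 16 were positive, where 41.5% of all genes were. Their median was 0.067. In this list 0 had an unadjusted limma p under 0.05 in either direction, against 2.5% of all genes higher and 2.8% lower. The granin-like Vgf had the smallest p there, with a difference of 0.41 (SE 0.20, limma p = 0.0722, adjusted p = 0.724; exact permutation p = 0.0857).

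Markers of the cells that could supply these transcripts were read beside them, where 41.5% of all genes had a positive difference. Interneuron markers other than peptides had a median difference of 0.029 over 24 tested of 27, with 13 positive and with Pvalb, a calcium-binding protein of fast-spiking cells, at 0.55 (SE 0.21). Their mean signal ran from -0.99 to -0.58 in WT and from -0.90 to -0.78 in CKO, so the CKO mice lay within the WT range. Excitatory markers had a median of 0.19 over 14, with 12 positive and Lmo4 at 0.50 (SE 0.18). Their mean signal ran from 2.33 to 2.56 in WT and from 2.41 to 2.86 in CKO, highest in CKO 3. With median scaling 13 were positive (median 0.33), with quantile normalization 9 (0.096) and with the authors' deposited values 8 (0.073). The shares of all genes there were 57.6%, 48.6% and 54.2%. The excitatory median was 0.155 within slide 2 and 0.113 within slide 3. Over all genes the median difference was 0.14 in signal decile 9 and 0.16 in decile 10. The markers were not set against their deciles. Dentate granule cell markers had a median of -0.35 over 10, with 2 positive and Tdo2 at -0.72 (SE 0.26), and mean signals from -0.040 to 0.44 in WT and from -0.31 to 0.052 in CKO. Pdyn and these markers thus both had negative differences, and the part of the one in the other was not tested. CA3 and mossy cell markers had a median of 0.090 over 10 of 11, with Bok at 0.83 and Cdh24 at -0.77, and -0.025 with the slide as a block.

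Markers of neighbouring regions were read beside the peptides that are better known from there. The 5 tested hypothalamus markers of 7 had a median of -0.24, with Lhx9 at -0.38 (SE 0.18). Of the 5, 0 were positive, where 41.5% of all genes were. Their mean signal ran from -0.82 to -0.66 in WT and from -1.43 to -0.80 in CKO. Their median was -0.057 within slide 2 and -0.38 within slide 3. With median scaling 2 were positive, where 57.6% of all genes were. Habenula markers had a median of 0.014 over 6 of 10, with Gng8 at 0.39, and -0.041 with the slide as a block. Thalamus markers had -0.083 over 12, with Zic4 at -0.47, and 0.060 with median scaling. The thalamus median was -0.269 within slide 2 and 0.265 within slide 3, so its sign was not the same on both slides. The part of tissue from these regions in the values of Hcrt, Pmch, Avp or Pomc was not tested.

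Markers of glia and of the choroid plexus had positive medians too. Astrocyte markers had a median of 0.17 over 13 of 15, with Mlc1 at 0.71 and Aldoc at 0.48, and oligodendrocyte markers 0.19 over 13 of 14, with Enpp2 at 0.66, Mal at 0.68 and Mag at 0.54. Microglia markers had 0.18 over 14 of 15, with Laptm5 at 0.55 and Tyrobp at 0.56. Choroid plexus and ependyma markers had 0.21 over 11 of 12, with Ttr at 1.16, Kl at 0.43 and Sostdc1 at 0.50. Their medians differed between slides, at 0.37 within slide 2 and -0.013 within slide 3 for astrocytes, where 5 of 13 were positive, and at 0.53 and 0.082 for microglia. They were 0.33 and 0.45 for oligodendrocytes and 0.13 and 0.30 for choroid plexus and ependyma. By mean signal CKO 1 and CKO 2 lay above every WT mouse for astrocyte, microglia and choroid plexus markers, CKO 4 did for choroid plexus markers, and no CKO mouse did for oligodendrocyte markers. CKO 3, where the granin and processing genes were highest, lay above every WT mouse in none of these lists. The limma adjusted p of each of these named markers was 0.724, and their part in the members' differences was not tested.

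Neuronal activity is a known driver of several of these genes, and activity-regulated genes were therefore listed. All 26 were tested and 21 had a positive difference, where 41.5% of all genes had one. Their median was 0.16 (0.078 within slide 2 and 0.056 within slide 3). At an unadjusted limma p under 0.05, 0 were higher and 0 lower, against 2.5% and 2.8% of all genes. The activity-regulated genes were not set against their signal deciles. Homer1 had the smallest p, at 0.47 (SE 0.25, limma p = 0.0869, adjusted p = 0.724; exact permutation p = 0.114). Their mean signal was 1.26 in CKO 3, the mouse in which the granin and processing genes were also highest, and between 0.28 and 0.72 in the other 7 mice. The array of CKO 3 also had the lowest share of probes well above background, 72.2%, and the lowest mean signal over all genes, -1.05. Excitatory markers and dense-core vesicle genes had their highest mean signal there too, at 2.86 and 1.47, while hypothalamus markers had their lowest, -1.43. The part of activity or of this array in the members' differences was not tested.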

How the data were processed

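RNA pulled down with haemagglutinin-tagged ribosomes from 8 hippocampi was amplified, labelled with Cy5 and hybridised to 1-colour Agilent arrays, per the labels' protocols. The deposited scanner files hold spot intensity values from Agilent Feature Extraction 11.5.1.1, per the file headers (11.5 in the submitters' processing notes), with background subtraction and detrending, and probe coordinates of mm9. A second file deposited by the authors gives 1 processed intensity per spot and array, blank for 7359 to 11803 spots per array, whose normalization is not given in the sources used here.

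Flagged spots were left out, and the processed signal was put on a log2 scale and centred on the 75th percentile of its array. Probes had to be well above background on 4 or more of the 8 arrays, and a gene's probe with the highest mean stood for the gene. Of 55681 probes 28331 were named through their accession in a GRCm38.p6 RefSeq table, and the others kept the file's name. RefSeq promoter windows came from the same assembly.

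Groups came from the labels, which call the mice biological replicates. The fit used limma 3.58.1 (two-sided; lmFit, then eBayes; R 4.3.3) over 29529 genes with Benjamini-Hochberg adjustment and a threshold of 0.05, and single genes also had an exact two-sided permutation test over mice. The fit was tested on simulated data. The number of arrays limits the precision. Alternatives covered scaling, background correction, the authors' deposited intensity values, filters, probes, prior variance, array weights, slide, sex, replicate number and each array left out.

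Values are given by mouse for members with an unadjusted p under 0.05 or groups that do not overlap and for the 6 with the smallest p among the peptides and among the granin and processing genes, with Sst, Pam and the second Pdyn probe chosen after their values were seen. From each other list the members with an unadjusted p under 0.05, at most 4, or otherwise the one with the smallest p were named. One gene that this rule takes is not reported here. The members and lists were chosen with earlier results of these data known.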

Additional observations from a re-analysis of the deposited data

Results flagged for a closer look

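In 3 of 54 combinations of a member and a group, 1 mouse stood apart from the other 3, where chance gives about 1 in 20. The gap to the nearest mouse was 0.854 of the group's range for Cck in CKO 4 (signal 4.13, the lowest of the group), 0.847 for Hcrt in WT 4 (-3.48, the lowest) and 0.888 for Chga in CKO 3 (1.09, the highest), each above the Dixon critical value for 4 values.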

How the results depend on the processing

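In every setting 0 neuropeptide genes and 0 granin and processing genes passed a limma adjusted p of 0.05, and the smallest adjusted p of any member was 0.290, with array weights. At an unadjusted p under 0.05 the counts ran from 0 to 2 higher and 0 to 1 lower for neuropeptide genes, and from 0 to 5 higher and 0 to 0 lower for granin and processing genes. The median stayed positive for both sets of genes in each setting, from 0.0265 (within slide 2) to 0.267 (the authors' deposited values) for neuropeptide genes and from 0.161 (the authors' deposited values) to 0.461 (median scaling) for granin and processing genes. With each array left out the medians ran from 0.0475 to 0.198 and from 0.231 to 0.371. Tac1, Cck, Pdyn, Cartpt, Chga, Chgb, Scg5, Pcsk2, Pcsk1n and Cpe kept their sign in each setting that gave a value. For Cpe this did not extend to each of its probes, as the one at 67085401 to 67085460 had -0.18.

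The sign of other members turned, and the cause was not tested. With quantile normalization the difference was -0.025 for the second probe of Cpe, 0.006 for Crhbp, -0.023 for Penk and -0.035 for Scg3. With normexp added these were -0.066, 0.024, -0.085 and -0.022. With the authors' deposited values they were -0.134, 0.114, -0.091 and -0.053, and Scg2 had -0.002. With median scaling Cort had 0.009, Crhbp 0.079 and Gal 0.0. With array weights Crhbp had 0.044 and Nts -0.088. With the slide as a fixed block Crhbp had 0.007 and Nts -0.179, and as a random block Nts had -0.061. Within slide 2 the values were -0.022 for Adcyap1, 0.148 for Crhbp, -0.308 for Nts, -0.035 for Penk and -0.254 for Pnoc. Within slide 3, where WT 4 alone stands for its group, they were 0.043 for Cort, 0.199 for Gal, 0.035 for Hcrt, -0.39 for Npy, 0.168 for Pam, -0.107 for Pcsk1, -0.161 for Pomc, -0.127 for Scg3 and -0.312 for Sst. With each array left out the ranges that crossed 0 were -0.063 to 0.125 for Avp, -0.317 to 0.059 for Cort, -0.196 to 0.07 for Crhbp, -0.178 to 0.197 for Nts, -0.008 to 0.401 for Pcsk1, -0.125 to 0.217 for Penk, -0.076 to 0.41 for Pmch, -0.066 to 1.027 for Pnoc, -0.048 to 0.298 for Pomc and -0.007 to 0.17 for Scg3.

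Replicate numbers did not pair the mice: same-numbered mice had correlations of -0.32, 0.39, -0.42 and 0.068, and of the 4 WT mice none correlated best with the CKO mouse of its own number. With the replicate block 0 members of either set passed, and the medians were 0.0904 and 0.317.

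Dim probes limit what these arrays show for Tac2, Vip, Crh, Trh and Oxt, which were not tested, and for Tac1, Pnoc and Pmch, each short of background on 1 array. With 4 mice per group, a p that misses the threshold does not show that the groups are alike.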
